A study of Mus musculus with 8 samples.

Results

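Keratinocytes that carried human integrin α3 were compared with keratinocytes of the same origin that carried human integrin α9 in its place. The comparison used 4 of the 8 arrays of the series, 2 of the α3 line and 2 of the α9 line, chosen by their sample titles, and all 23332 transcript clusters on the array. The cells of every line were MK546, epidermal keratinocytes from newborn mice without α3, made to grow indefinitely with the SV40 large T antigen. The α3 line had received human α3 by stable transfection and the α9 line human α9 by a retrovirus. A line with both human subunits (α3α9) and the parent cells with neither (null), also 2 arrays each, entered the fit for its spread and are given beside the compared lines. All lines shared the α3-null mouse origin and were kept at 33 °C and 8% CO2 on denatured collagen (30 µg per ml), in medium with 4% serum stripped of calcium, 0.05 mM calcium chloride, hydrocortisone (0.4 µg per ml), insulin (5 µg per ml), interferon-γ (10 units per ml) and EGF (10 ng per ml). The sources used here do not say whether a line was 1 clone or a pool, nor whether the α3α9 cells were made from the α3 line or from the α9 line. They call the arrays of a line biological replicates without naming separate cultures, so a p-value measures the spread between these arrays.

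Integrins are membrane receptors built of an α and a β subunit, and they tie the extracellular matrix to the actin cytoskeleton. In epidermis α3β1 binds the laminin of the basement membrane and helps to organise that membrane and the adhesion, migration and gene expression of keratinocytes. The α9 subunit pairs only with β1, and α9β1 binds tenascin-C, the extra domain A of fibronectin, osteopontin, several ADAM proteins and growth factors of the VEGF family. Both receptors therefore use the same β chain.

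In their titles the arrays of the α3 and null lines carry the word re-analysis, which those of the α3α9 and α9 lines do not. Human α9 and the set of arrays thus change together between the compared lines and cannot be told apart. To show how much of a difference was also seen inside a set, each log2 difference was written as the exact sum of 2 parts. The α3 part is the mean of α3 minus null and α3α9 minus α9, both taken within a set. The set-and-α9 part is the mean of null minus α9 and α3 minus α3α9, both taken across sets. How the α3α9 cells were made and whether lines were clones is not given. The α3 part therefore cannot be told apart from line or clone differences other than α3. Differences are on the scale of log2(intensity + 16), which understates the change of dim genes, and ± gives the standard error of the fit over 2 arrays a line. Intensities were scaled so that every array had a median of 102.5, and replicate arrays correlated at 0.9858 to 0.9905. Fewer cells with a transcript and less of it per cell cannot be told apart in such RNA. The basal keratins Krt5 and Krt14 were strong in the compared lines, with 12990 and 13960 on α3 arrays against 12180 and 15810 on α9 arrays for Krt5, and neither differed past the threshold (-0.04 and -0.09 on the log2 scale, adjusted p = 0.89 and 0.8). Of the markers of other cells, some were dim, with Ptprc of leukocytes at 24.3 and 23.1 on α3 arrays against 31.6 and 30.7 on α9 arrays, and Dct of melanocytes at 35.3 and 30.97 on α3 arrays against 36.3 and 35.1 on α9 arrays. Others lay above the array median: the macrophage marker Cd68 read 493 and 580.2 on α3 arrays against 896.5 and 935 on α9 arrays, and the collagen gene Col1a1 of fibroblasts read 201 and 193 on α3 arrays against 205 and 217 on α9 arrays. The fibroblast list had 1 of 10 measured markers past the threshold (Dcn, lower), the melanocyte list 1 of 7 (Pmel, lower), the leukocyte list 1 of 10 (Cd68, lower) and the endothelial list 1 of 8 (Flt1, higher). Each of these 4 calls was lost without at least 1 of the compared arrays: Dcn without α3 array 2, Pmel without any 1 of the 4, Cd68 without α3 array 1 or either α9 array, and Flt1 without either α3 array or α9 array 2. Summed over the leukocyte list, intensity was 849 and 902 on α3 arrays, against 1299 and 1336 on α9 arrays. Cd68 alone gave the larger part of each of these sums. The other 3 lists summed to 347.5 to 844.9 on all 4 arrays. The part of such cells in the results was not tested. Of 10 keratinocyte markers 4 were lower (Cdh3, Itga6, Col17a1 and Lamb3), and 2 without either α3 array or α9 array 2.

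Of 23332 clusters, 5950 (25.5%) differed between the lines at an adjusted p under 0.05 from limma, 2436 (10.4%) higher and 3514 (15.1%) lower in the α3 line. The arrays of the α3 line did not overlap those of the α9 line in 15682 clusters (67.2% of all), which include all 5950 that passed. Most of these differences were modest: their median size was 0.78 on the log2 scale, 1748 exceeded 2-fold and 206 exceeded 4-fold. The set-and-α9 part was the larger in 3995 of the 5950 clusters and the α3 part in 1955, while among the 206 clusters over 4-fold the counts were 107 and 99. At the same threshold 3010 clusters (12.9%) passed for the α3 part and 6305 (27.0%) for the set-and-α9 part. Among 14860 genes with a name, 4310 (29.0%) passed in the comparison of the lines, 1730 (11.6%) higher and 2580 (17.4%) lower, and their median difference was -0.13. These shares are the background for every gene list that follows, and a list whose counts lie near them does not stand out from it. Without α3 array 1, α3 array 2 or α9 array 2 the count of passing clusters was 2789, 3459 and 2754, and on the deposited scale, without scaling of the arrays, it was 2672.

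**Figure D1:**
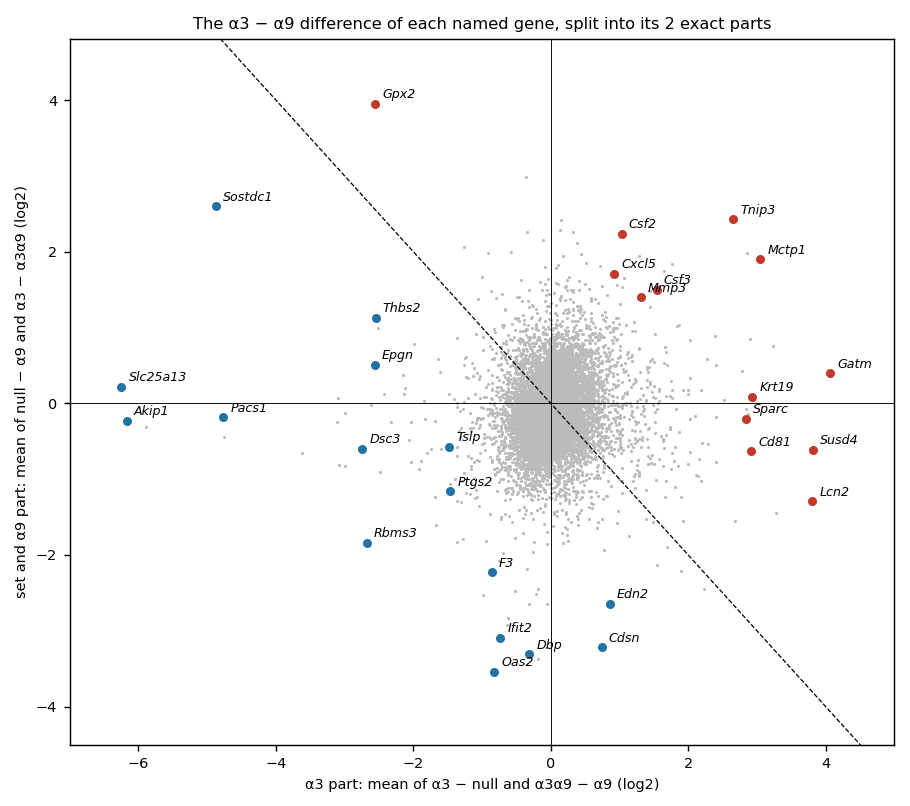
The α3 part (x axis, log2) and the set-and-α9 part (y axis, log2) of the difference between the α3 and α9 lines, for 14860 named genes as grey dots, with genes of the text in red (higher in the α3 line) or blue (lower). On the dashed line the parts cancel; Slc25a13, Akip1, Krt19 and Cd81 lie along the x axis, whereas Oas2, Dbp and Cdsn lie far down the y axis.

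**Figure D2:**
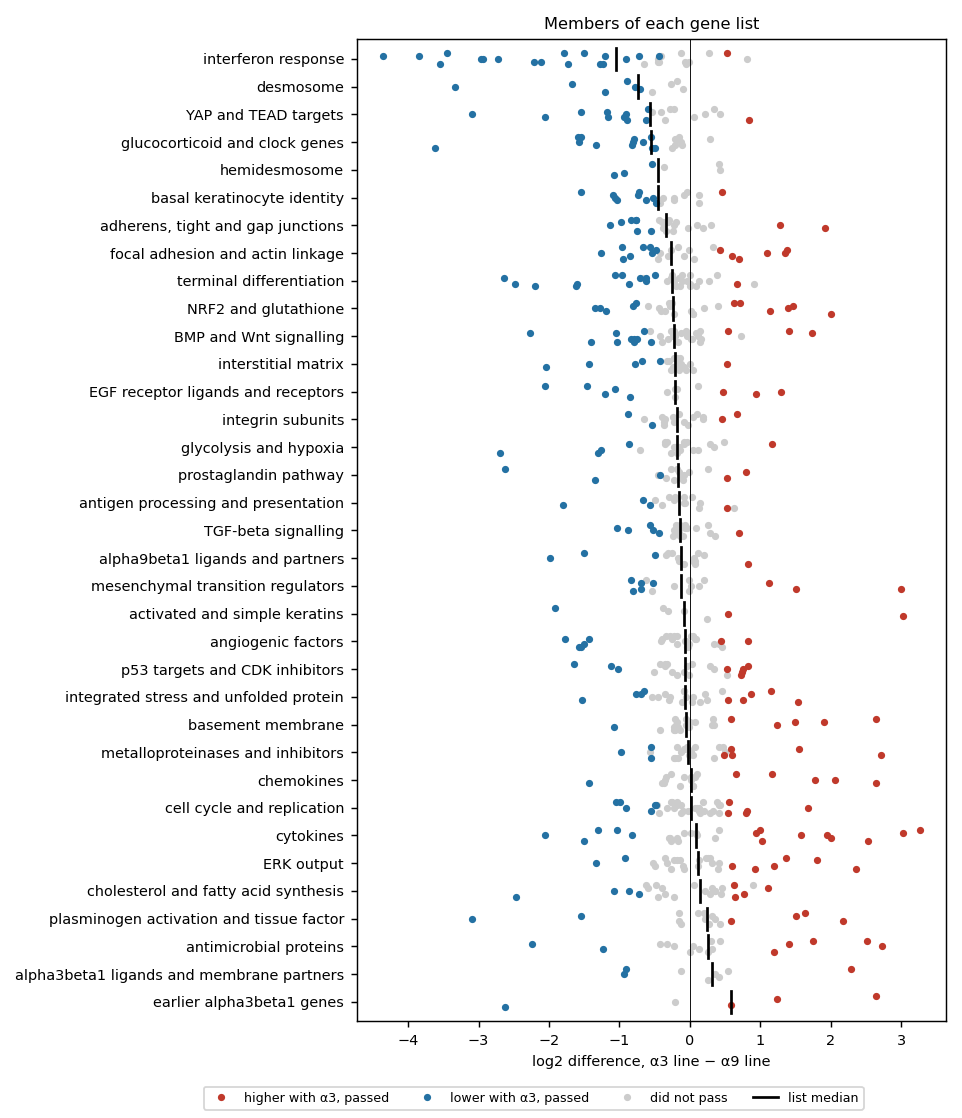
Log2 difference between the α3 and α9 lines for the measured members of 35 gene lists, sorted by list median (black bar); red and blue dots passed at an adjusted p under 0.05 and grey dots did not. Interferon response genes had the lowest median, -1.05, with 18 of 30 members lower in the α3 line.

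Of 18 measured integrin subunits of the mouse cells, 2 passed higher (Itga3 and Itga2) and 2 lower (Itgb5 and Itga6), beside 11.6% and 17.4% of named genes, and 14 did not pass. The list median was -0.19, against -0.13 over all named genes. The mouse Itga3 cluster, the subunit that was targeted, read 1232 and 1242 in α3 and 1015 and 1099 in α3α9 cells, against 983 and 818 in α9 and 1088 and 1015 in null cells. These levels overlap between the null and α3α9 lines, and the difference between the compared lines was small (0.46 ± 0.13, adjusted p = 0.041). Mouse probes may not read the human coding sequence, and whether they lie outside the disrupted part of the mouse gene is not given in the sources used here, so neither Itga3 nor Itga9 checks a label. Itga9 stayed near 46.6 and 41.03 on α3 arrays against 55.97 and 65.4 on α9 arrays, and did not pass (-0.36 ± 0.13, adjusted p = 0.077). Itgb1, the shared β chain, read 5591 and 5648 in α3 and 5901 and 4873 in α3α9 cells, against 6803 and 8082 in α9 and 8083 and 8173 in null cells. It was lowest in both lines with α3, yet the comparison of α3 with α9 did not pass (-0.4 ± 0.14, adjusted p = 0.083), while its α3 part was -0.5 (adjusted p = 0.021). Itga2, which makes the collagen receptor α2β1, stood at 353 and 327 in α3 and 76.3 and 63.3 in α3α9 cells, against 256 and 168 in α9 and 95.65 and 111 in null cells. Its differences within the sets ran in opposite directions, 1.58 for α3 minus null and -1.39 for α3α9 minus α9. Itgb5, which pairs with αv to bind vitronectin, was lower in the α3 line (-0.88 ± 0.15, adjusted p = 0.0062), and its α3 part was 0.19 (adjusted p = 0.29). Itga6, the laminin receptor subunit of hemidesmosomes, had 3722 and 3707 on α3 arrays against 5068 and 5739 on α9 arrays (-0.54 on the log2 scale, adjusted p = 0.032). Only the Itgb5 call held without each array in turn: Itga3 was lost without either α3 array, α9 array 2 or either null array, Itga2 without any array but α9 array 1, and Itga6 without any array of the α3, α9 and null lines. The other subunits did not pass. Itgb7 was at -0.65, Itga5 and Itgb4 at -0.37 each, and Itga8, Itga11, Itga7, Itgb3, Itgae, Itgb6, Itgav, Itgb2 and Itga2b lay between -0.24 and 0.19.

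Among membrane partners of α3β1, the tetraspanin Cd81 was the large difference. It read 3888 and 3715 in α3 and 5572 and 4019 in α3α9 cells, against 789 and 755 in α9 and 354 and 435 in null cells. Both lines with human α3 were several-fold brighter than both lines without it, and the α3 line exceeded the α9 line by 2.28 ± 0.18 on the log2 scale (adjusted p = 0.0004). The tetraspanins Cd151 (0.41, adjusted p = 0.076) and Cd9 (0.26, adjusted p = 0.31), the immunoglobulin protein basigin (Bsg, -0.13, adjusted p = 0.68) and the urokinase receptor Plaur (0.35, adjusted p = 0.17) did not pass. Of the laminin chains, Lamc1 had 424 and 427 on α3 arrays against 822 and 826 on α9 arrays, and Lamb3, of the main epidermal laminin, had 2605 and 2766 on α3 arrays against 4790 and 5310 on α9 arrays. Both were lower in the α3 line (-0.93 and -0.91, adjusted p = 0.0057 and 0.013), whereas Lamb1 was 0.54 with an adjusted p of 0.058. The α3 part was -0.13 for Lamc1 and -0.49 for Lamb3, and the set-and-α9 part -0.8 and -0.42. In all, 1 of 8 measured ligands and partners passed higher and 2 lower, beside 11.6% and 17.4% of named genes. The Lamb3 call was lost without either α3 array or α9 array 2, and without either α3α9 array the count of higher members was 2.

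Genes of α9β1 ligands and partners showed 1 rise and 3 falls among 16 measured members, beside 11.6% and 17.4% of named genes. Tgm2, a transglutaminase that crosslinks matrix proteins, read 229.6 and 266 in α3 and 280.4 and 254.5 in α3α9 cells, against 847 and 1226 in α9 and 322.5 and 365.5 in null cells. Both α9 arrays were brighter than all others, and the α3 line was lower than the α9 line (-1.98 ± 0.19, adjusted p = 0.00077). The lymphatic growth factors went opposite ways: Vegfd was lower (-1.5 ± 0.12, adjusted p = 0.00039), with 478 and 419.9 on α3 arrays against 1297 and 1300 on α9 arrays, and Vegfc higher (0.82 ± 0.23, adjusted p = 0.039), with 354 and 326 on α3 arrays against 242 and 142 on α9 arrays. The α3 part was -0.32 for Vegfd and 1.64 for Vegfc, and the set-and-α9 part -1.18 and -0.83. Adam15 was slightly lower (-0.49, adjusted p = 0.024). The matrix ligands Tnc (tenascin-C) and Fn1 (fibronectin) were dim, at 40.5 and 39.01 on α3 arrays against 49.7 and 51.3 on α9 arrays for Tnc, and neither passed (adjusted p = 0.13 and 0.28). Nor did Thbs1, Xcl1, Svep1, Emilin1, Vwf, Vegfa, Vcam1, Adam9, F13a1 or Adam12, which lay between -0.34 and 0.12. The rise of Vegfc was lost without either α3 array, α9 array 2 or either null array, and the fall of Adam15 without any array of the compared lines.

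Focal adhesion genes, which link integrins to actin, differed in both directions, with 6 higher and 8 lower of 23 measured. The kindlins, which activate integrins, were higher: Fermt1 had 911 and 881.5 on α3 arrays against 369.5 and 300.5 on α9 arrays, and Fermt2 had 120.2 and 119 on α3 arrays against 33.03 and 41.4 on α9 arrays (1.38 and 1.35, adjusted p = 0.00093 and 0.00089). Vinculin (Vcl) was lower, with 1181 and 1272 in α3 and 2967 and 2507 in α3α9 cells, against 2660 and 3290 in α9 and 1969 and 1885 in null cells (-1.26 ± 0.15, adjusted p = 0.0016). The exchange factor Arhgef7 (β-PIX) had 753 and 819 in α3 and 931 and 795 in α3α9 cells, against 369.5 and 347 in α9 and 426 and 444 in null cells (1.1, adjusted p = 0.0015), and its α3 part of 1.03 was nearly the whole difference. Counts of higher and lower members were 3 and 3 without α3 array 1 or α9 array 2, and the lower count was 4 without α3 array 2.

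Matrix genes of the basement membrane were higher in 5 of 24 measured members and lower in 1, beside 11.6% and 17.4% of all named genes. Sparc, a secreted protein that binds collagen, read 3884 and 3550 in α3 and 3868 and 2850 in α3α9 cells, against 574 and 591.5 in α9 and 379 and 403 in null cells. Fibulin-2 (Fbln2), a glycoprotein of basement membranes, had 2122 and 2250 in α3 and 3724 and 2498 in α3α9 cells, against 1024 and 835 in α9 and 568 and 566 in null cells. For both genes the lines with human α3 stood above the lines without it in either set, and the comparison of α3 with α9 gave 2.64 ± 0.16 for Sparc and 1.23 ± 0.2 for Fbln2 (adjusted p = 0.00017 and 0.0051). Nephronectin (Npnt), a ligand of integrin α8β1, was also higher, with 301 and 277 in α3 and 197 and 194 in α3α9 cells, against 60.5 and 69.8 in α9 and 97.2 and 89.5 in null cells (1.91, adjusted p = 0.0002). The type IV collagen chain Col4a1 had 397 and 435 on α3 arrays against 149.5 and 126 on α9 arrays (1.49, adjusted p = 0.0029). Its α3 part, 1.22, held most of the difference. Col17a1, the transmembrane collagen of hemidesmosomes, was the single fall (-1.08 ± 0.18, adjusted p = 0.006).

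Interstitial matrix genes had 5 falls and 1 rise among 23 measured. Tgfbi, a secreted adhesion protein, had 110.1 and 122 in α3 and 111 and 72.9 in α3α9 cells, against 533 and 523 in α9 and 282 and 340.5 in null cells, so the α3 and α3α9 lines were both dim (-2.04 ± 0.19, adjusted p = 0.00065). Thbs2 (thrombospondin-2) was brightest in the null line, with 83.9 and 88.02 in α3 and 45.3 and 34.4 in α3α9 cells, against 346 and 191 in α9 and 637.5 and 764 in null cells. Its α3 part of -2.55 was partly offset by a set-and-α9 part of 1.13, which left -1.43 (adjusted p = 0.0074). Col12a1 (-0.78) and the heparan sulfate sulfatase Sulf1 (-0.68) were lower too, although the α3 part of Col12a1 was positive (0.74, adjusted p = 0.003). The single rise, of Sulf2, was lost without any 1 of the compared arrays.

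**Figure D3:**
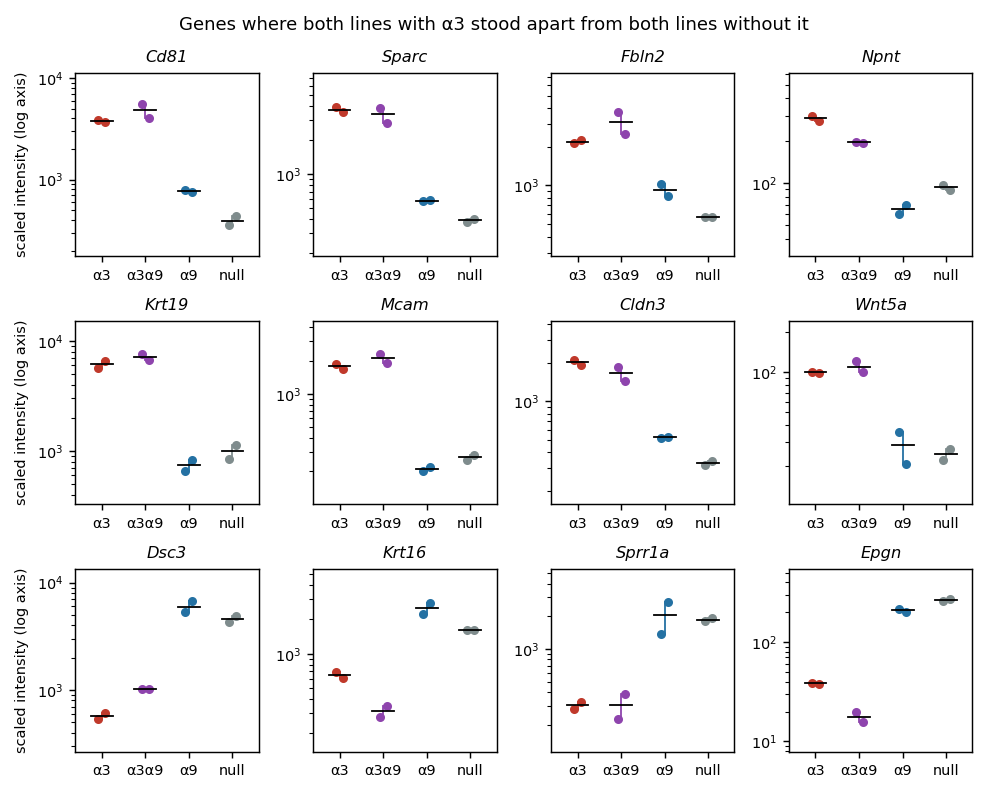
Scaled intensity (log axis) of 12 genes on the 2 arrays of each line; points are arrays and black bars are line means. For each of these genes both lines with human α3 lie on the same side of both lines without it, for example Krt19 at 5709 to 7562 with α3 and 661 to 1138 without.

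Keratins and cell contacts set the lines apart. Krt19, a keratin of simple epithelia, read 5709 and 6618 in α3 and 7562 and 6764 in α3α9 cells, against 661 and 836 in α9 and 846 and 1138 in null cells and was higher in the α3 line by 3.02 ± 0.19 (adjusted p = 0.00019). Krt16, a keratin of activated epidermis, went the other way, with 692 and 608 in α3 and 275.5 and 349 in α3α9 cells, against 2241 and 2776 in α9 and 1619 and 1602 in null cells (-1.92 ± 0.16, adjusted p = 0.00052). Of 7 measured keratins of activated and simple epithelia 2 were higher and 1 lower, and without α9 array 1 a further keratin was lower. Krt18, another simple keratin, was slightly higher (0.54, adjusted p = 0.039), a call lost without any array of the α3, α9 or null lines. Of 10 measured desmosome genes 6 were lower and 0 higher, with a list median of -0.74. The desmosomal cadherin Dsc3 had 533 and 616 in α3 and 1018 and 1027 in α3α9 cells, against 5285 and 6699 in α9 and 4304 and 4847 in null cells (-3.34 ± 0.15, adjusted p = 5.9e-05). Lines with α3 kept a small fraction of the signal seen in lines without it, in both sets. Its partner cadherin Dsg3 had 1719 and 1820 on α3 arrays against 3409 and 4868 on α9 arrays (-1.2, adjusted p = 0.0036). The plaque proteins Pkp1 (-1.68, adjusted p = 0.0017) and Jup, or plakoglobin (-0.89, adjusted p = 0.011), were lower as well. For the α3 part alone 5 of the 10 desmosome genes passed lower, beside 7.32% of all named genes. The fall of Jup was lost without α3 array 1 or α9 array 2, and the desmosome count was 3 without either of those arrays. Of 6 hemidesmosome genes 3 were lower (Col17a1, Dst and Itga6), with Dst, the plakin that anchors keratin, at 426 and 445 on α3 arrays against 807 and 889 on α9 arrays (-0.94, adjusted p = 0.0019). The α3 part of Dst was -0.02 and its set-and-α9 part -0.92. Without either α3α9 array 1 hemidesmosome gene passed higher.

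Of 23 genes of adherens, tight and gap junctions, 7 were lower and 2 higher. The tight junction protein Cldn3 read 2125 and 1932 in α3 and 1862 and 1451 in α3α9 cells, against 516 and 528 in α9 and 314.5 and 343 in null cells (1.92 ± 0.15, adjusted p = 0.00039), so both lines with α3 were brighter than both lines without it. Cldn12 was higher too (1.28, adjusted p = 0.0018). The main epidermal claudin, Cldn1, had 2707 and 2459 on α3 arrays against 5154 and 6252 on α9 arrays (-1.13, adjusted p = 0.0022), and Cdh3 (P-cadherin) had 1429 and 1348 on α3 arrays against 2541 and 2969 on α9 arrays (-0.98, adjusted p = 0.0035). The count of lower junction genes was 3 without α3 array 1 and 4 without α3 array 2 or α9 array 2. Among 16 regulators and markers of mesenchymal transition, 3 were higher and 5 lower. The cell adhesion molecule Mcam had 1878 and 1698 in α3 and 2285 and 1927 in α3α9 cells, against 202 and 218 in α9 and 252 and 279.6 in null cells (2.99 ± 0.14, adjusted p = 5.7e-05). Its increase was almost wholly in the α3 part, 2.95. Cdh2 (N-cadherin) had 800.4 and 708 in α3 and 1128 and 1176 in α3α9 cells, against 313.5 and 362 in α9 and 301 and 290 in null cells (1.12, adjusted p = 0.0014), and S100a4 had 167 and 159 on α3 arrays against 65.4 and 33.1 on α9 arrays (1.5, adjusted p = 0.0048). The epithelial splicing factor Esrp2 was lower (-0.84, adjusted p = 0.0025). Lower calls in that list numbered 2 without α3 array 1 or α9 array 2 and 3 without either other compared array.

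Regulators and products of epidermal differentiation were mostly lower where they passed. Of 18 genes of basal identity and its exit, 9 were lower and 1 higher. The differentiation regulators Klf4 (505 and 554 on α3 arrays against 1439 and 1720 on α9 arrays) and Klf5 (1142 and 1185 on α3 arrays against 2202 and 2822 on α9 arrays) were both dimmer in the α3 line (-1.54 and -1.09 on the log2 scale, adjusted p = 0.00066 and 0.0036). Ovol1 (-1.06, adjusted p = 0.0022) and Zfp750 (-1.03, adjusted p = 0.0036) were lower as well. Of 33 terminal differentiation genes 12 were lower and 1 higher. Sprr1a, a precursor of the cornified envelope, had 277 and 324 in α3 and 224.5 and 379.5 in α3α9 cells, against 1384 and 2738 in α9 and 1808 and 1918 in null cells (-2.64 ± 0.34, adjusted p = 0.0022). The difference lay in the α3 part, -2.62, with -0.02 left for the set-and-α9 part. Sprr3 (-2.2, adjusted p = 0.0022) and suprabasin (Sbsn, -1.61, adjusted p = 0.00047) were likewise lower, and Sprr family members are similar enough that probes may be shared. Corneodesmosin (Cdsn), the glue of cornified cells, had 182.5 and 247 in α3 and 3473 and 3349 in α3α9 cells, against 1065 and 1487 in α9 and 197 and 209.9 in null cells. Its difference of -2.48 (adjusted p = 0.0004) was the sum of a set-and-α9 part of -3.22 and an α3 part of 0.74. Basal identity genes counted 5 lower without α3 array 1, α3 array 2 or α9 array 2, and terminal differentiation genes 7 lower without α3 array 1 or α9 array 2. The single rises were lost too: Tfap2c without any array of the α3, α9 and null lines, and Sprr2h without α3 array 2.

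The 15 largest rises over all named genes ranged from 3.02 (Krt19) to 5.08 (Tnip3). Tnip3, which binds the NF-κB inhibitor TNFAIP3, had 1620 and 1383 in α3 and 130.5 and 132 in α3α9 cells, against 34.7 and 23.2 in α9 and 108 and 111.5 in null cells (5.08 ± 0.16, adjusted p = 1.2e-05). It was far brighter in the α3 line than in any other. Mctp1, a membrane protein with C2 domains, showed the same order, with 935 and 852 in α3 and 79.6 and 64.98 in α3α9 cells, against 13.4 and 13.3 in α9 and 27.9 and 20.2 in null cells (4.95, adjusted p = 1.2e-05), as did Glipr2, with 1025 and 959.6 in α3 and 89.97 and 124.5 in α3α9 cells, against 16.6 and 21.97 in α9 and 43.5 and 58.7 in null cells (4.84, adjusted p = 3.3e-05). Gatm, the enzyme of the first step of creatine synthesis, was instead bright in both lines with α3, with 1284 and 971 in α3 and 1254 and 1086 in α3α9 cells, against 36.8 and 34.6 in α9 and 69.5 and 86.4 in null cells (4.45 ± 0.17, adjusted p = 3.3e-05). Susd4, a complement regulator, was likewise bright in both lines with α3, with 389 and 397 in α3 and 989 and 857 in α3α9 cells, against 26.3 and 30.3 in α9 and 25.2 and 30.4 in null cells (3.21, adjusted p = 3.7e-05). So was Mgmt, which repairs alkylated guanine (557 and 486 in α3 and 417 and 338 in α3α9 cells, against 38.3 and 45.98 in α9 and 50.3 and 71.9 in null cells, 3.21 on the log2 scale). Arhgdib had 1463 and 1569 in α3 and 625 and 512 in α3α9 cells, against 121 and 78.9 in α9 and 110.1 and 141 in null cells (3.75, adjusted p = 0.00012). Nnmt, which methylates nicotinamide, had 734 and 589.7 in α3 and 131 and 134 in α3α9 cells, against 51.2 and 44.5 in α9 and 128 and 158 in null cells (3.4, adjusted p = 5.7e-05). The rest were Speer3 (3.99), Gimap9 (3.6), Zfp958 (3.28) and the linker histone H1f1 (3.24), all of families whose members may share probes, and Csf2, Csf3 and Krt19.

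The 15 largest falls ranged from -3.51 (Crebrf) to -6.4 (Akip1). Several were genes with nearly no signal in either line with α3. Akip1, which binds protein kinase A, had 1.27 and 0.858 in α3 and 0.4005 and 3.998 in α3α9 cells, against 1325 and 1540 in α9 and 984 and 1231 in null cells (-6.4 ± 0.16, adjusted p = 7.3e-06). The mitochondrial aspartate and glutamate carrier Slc25a13 had 46.6 and 42.25 in α3 and 56.1 and 47.7 in α3α9 cells, against 4349 and 3537 in α9 and 5568 and 6388 in null cells (-6.03 ± 0.15, adjusted p = 7.3e-06). The peptidase inhibitor Pi15 had 11.8 and 12.15 in α3 and 15.01 and 9.93 in α3α9 cells, against 2226 and 1867 in α9 and 1257 and 1423 in null cells, and the sorting protein Pacs1 had 66.8 and 66.9 in α3 and 44.4 and 58.2 in α3α9 cells, against 2444 and 2636 in α9 and 1574 and 1620 in null cells. In all 4 genes every array with α3 was at or under 66.9 and every array without it was at or above 984. Slc50a1, a sugar transporter, and Igf2bp3, an RNA-binding protein, had the same order of lines (-5.21 and -4.29, adjusted p = 4.1e-05 and 1.3e-05). Rbms3, another RNA-binding protein, was bright in the α9 line alone, with 34.3 and 34.1 in α3 and 51.05 and 44.6 in α3α9 cells, against 1091 and 1195 in α9 and 93.6 and 103 in null cells (-4.53 ± 0.12, adjusted p = 7.3e-06). The kinase Mapk12 (-3.89) and Tmem159 (-3.82) were highest in the α9 line and dim in both lines with α3. The other 6 were the interferon response genes Oas2, Ifit2 and Rsad2, with Trim30a, the clock output gene Dbp and Crebrf, at 68.8 and 79.4 on α3 arrays against 911 and 1117 on α9 arrays for the last of these.

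Cytokine genes moved both ways, with 9 higher and 5 lower of 25 measured. The colony stimulating factor Csf2 had 624 and 516 in α3 and 65.35 and 72.04 in α3α9 cells, against 80.8 and 22.1 in α9 and 189.5 and 171 in null cells (3.26 ± 0.38, adjusted p = 0.0015). The granulocyte factor Csf3 had 943.5 and 859 in α3 and 345 and 363 in α3α9 cells, against 100.1 and 91.8 in α9 and 318 and 372 in null cells (3.03 ± 0.13, adjusted p = 4.1e-05). For Csf3 the α3 part (1.54) and the set-and-α9 part (1.5) were nearly equal, whereas for Csf2 they were 1.03 and 2.24. Il23a, a cytokine subunit that sustains a class of inflammatory helper T cells, had 294 and 218 on α3 arrays against 33.8 and 27.7 on α9 arrays (2.53, adjusted p = 0.00033). Tslp, an epithelial cytokine of allergic inflammation, had 66.9 and 69.7 in α3 and 11.45 and 7.18 in α3α9 cells, against 371.5 and 299.7 in α9 and 23.1 and 41.5 in null cells (-2.05 ± 0.21, adjusted p = 0.00088). The α9 line alone was bright for Tslp. Without α3 array 1 or α9 array 1 the count of lower cytokines was 3.

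Of 19 chemokines 5 were higher and 1 lower. The neutrophil chemokine Cxcl5 read 9778 and 9342 in α3 and 3398 and 3021 in α3α9 cells, against 1923 and 1207 in α9 and 5432 and 5660 in null cells (2.64 ± 0.21, adjusted p = 0.00041). The related Cxcl2 read 2301 and 1938 in α3 and 617 and 805 in α3α9 cells, against 439 and 557 in α9 and 1252 and 1537 in null cells (2.06, adjusted p = 0.00076), and Ccl20, which attracts cells with a matching receptor on immune cells, read 313 and 288 in α3 and 125 and 93.3 in α3α9 cells, against 86.8 and 67.04 in α9 and 225 and 319 in null cells (1.78, adjusted p = 0.0015). In these 3 genes the null arrays lay beside the α3 arrays or between them and the α9 arrays, and the set-and-α9 part was the larger. Ccl5 was lower (-1.43, adjusted p = 0.0033). A stretch of the Cxcl2 promoter is shown because it holds, in capitals, the κB motif searched on both strands as GGGA, any base and TTTCC. The search covered the 250 bases before each gene's start (RefSeq, GRCm38.p6). The motif was held by 2 of the 11 higher members of the cytokine, chemokine and antimicrobial lists with a promoter entry. It was held by 0 of 4 lower members, 3 of 27 that did not pass and 0.414% of 27025 promoters. The stretch is chr5:90903777-90903836 on the plus strand, with the motif 97 bases before the start.
Cxcl2: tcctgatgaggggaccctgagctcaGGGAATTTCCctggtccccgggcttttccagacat

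Antimicrobial genes had 5 rises and 2 falls among 17 measured. The siderophore-binding lipocalin Lcn2 had 1951 and 1623 in α3 and 2832 and 4032 in α3α9 cells, against 263 and 340.3 in α9 and 75.3 and 93.8 in null cells, so both lines with α3 were bright and the α9 line exceeded the null line. Its α3 part of 3.8 was offset in part by -1.29, which left 2.51 (adjusted p = 0.00053). S100a8, a subunit of calprotectin, had 3104 and 3785 in α3 and 246 and 179.9 in α3α9 cells, against 776 and 324 in α9 and 319.6 and 331 in null cells (2.73 ± 0.36, adjusted p = 0.0024), and was bright in the α3 line alone. The inducible nitric oxide synthase Nos2 had 1434 and 1637 in α3 and 1480 and 1175 in α3α9 cells, against 549.5 and 362 in α9 and 318 and 369 in null cells (1.74, adjusted p = 0.0019). S100a7a (psoriasin family) had 218 and 206 in α3 and 223 and 247 in α3α9 cells, against 1092 and 1025 in α9 and 238 and 216 in null cells (-2.24, adjusted p = 0.00011), with the α9 line apart from the other lines.

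Interferon response genes were the list with the lowest median, -1.05, with 18 of 30 measured members lower and 1 higher, beside 17.4% and 11.6% of named genes. Interferon-γ was in the medium of every line. Oas2, which makes the activator of RNase L, had 19.7 and 24.55 in α3 and 589.8 and 568 in α3α9 cells, against 885 and 656 in α9 and 68.3 and 81.03 in null cells (-4.35 ± 0.17, adjusted p = 3.3e-05). The antiviral tetratricopeptide genes Ifit2 (54.6 and 72.2 in α3 and 1380 and 1451 in α3α9 cells, against 1139 and 1083 in α9 and 244 and 287 in null cells, -3.84 on the log2 scale) and Ifit1 (257 and 230.1 in α3 and 4320 and 3586 in α3α9 cells, against 2567 and 3101 in α9 and 692 and 1017 in null cells, -3.45) were likewise lowest in the α3 line. For both the null line lay between the α3 line and the α3α9 and α9 lines. Rsad2, or viperin, had 304 and 316 in α3 and 3504 and 2881 in α3α9 cells, against 3112 and 4658 in α9 and 664 and 621 in null cells (-3.55 ± 0.2, adjusted p = 0.00012). In each of these 4 genes both unmarked lines, α3α9 and α9, stood above both marked lines, and within the marked set the α3 line was lower than null (-1.83 for Ifit2, adjusted p = 0.00097), as were 3.73% of named genes. Within the unmarked set α3α9 minus α9 did not pass for them (0.34 for Ifit2, adjusted p = 0.24), while 10.2% of named genes did. Over the list the median of the α3 part was -0.29, with 11 members lower and 0 higher, beside 7.32% and 8.91% of named genes. Its 2 within-set differences had medians of opposite sign. They were -0.69 for α3 minus null (15 lower, 0 higher) and 0.18 for α3α9 minus α9 (2 lower, 4 higher). The median of the set-and-α9 part was -0.84, with 20 lower and 3 higher, beside 19.9% and 10.4% of named genes. The transcription factor Irf7, chosen after its values were seen, had 468 and 355.5 in α3 and 4447 and 3393 in α3α9 cells, against 3289 and 3313 in α9 and 675 and 853 in null cells (-2.97, adjusted p = 0.00024). The lower count stayed between 15 and 22 with any array left out, and the single rise was lost without α3 array 1 or either array of the α9 or null lines. Ifit, Oas and Gbp genes lie in families whose members may share probes.

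Promoter stretches of Ifit1 and Rsad2 are shown because they hold the interferon-stimulated response element, searched on both strands as GAAA, any 2 bases and GAAA, and set in capitals. The search covered the 250 bases before each start. The element was found in 5 of 13 members that passed lower, 1 of 1 that passed higher and 5 of 9 that did not pass. Its share over all promoters was 3.46%. The stretches are chr19:34640760-34640838 on the plus strand for Ifit1 and chr12:26456538-26456597 on the minus strand for Rsad2, both from RefSeq, GRCm38.p6.
Ifit1: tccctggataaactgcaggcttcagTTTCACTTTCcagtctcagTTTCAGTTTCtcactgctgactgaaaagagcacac
Rsad2: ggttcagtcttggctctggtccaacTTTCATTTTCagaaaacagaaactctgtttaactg
Of 16 measured genes of antigen processing and presentation, 3 were lower and 1 higher, beside 17.4% and 11.6% of named genes. The checkpoint ligand Cd274 had 577 and 465 in α3 and 897 and 1034 in α3α9 cells, against 1593 and 2138 in α9 and 1064 and 1300 in null cells (-1.8 ± 0.19, adjusted p = 0.0011). The α9 line was brightest for it and the α3 line dimmest. The peptide transporter Tap1 (-0.67, adjusted p = 0.016) and the trimming peptidase Erap1 (-0.56, adjusted p = 0.014) were lower and the costimulator Cd80 higher (0.53, adjusted p = 0.041). Those 3 calls were lost without single arrays: Tap1 and Erap1 without either α3 array or α9 array 2, and Cd80 without any array but α3 array 2.

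**Figure D4:**
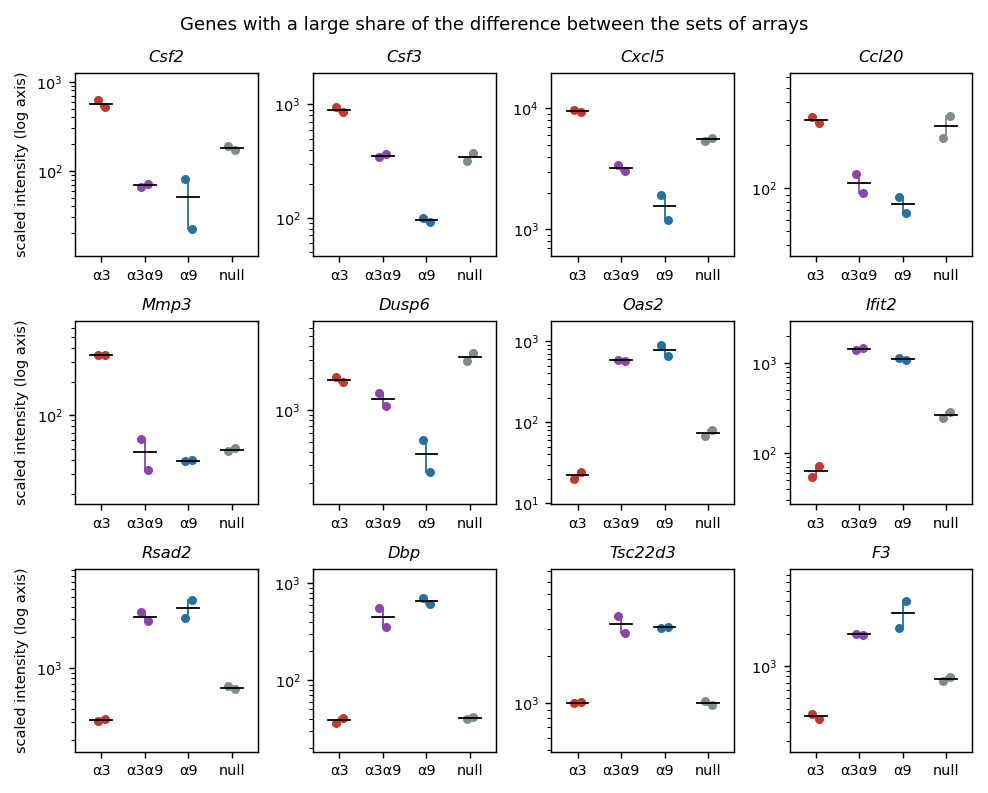
Scaled intensity (log axis) of 12 genes for which the set-and-α9 part was large, on the 2 arrays of each line; points are arrays and black bars are line means. Dbp is at 36.6 to 42.2 in the α3 and null lines and at 355 to 699.5 in the α3α9 and α9 lines.

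Clock and glucocorticoid response genes were lower in 12 of 20 measured members and higher in 0, with a list median of -0.55. Hydrocortisone was in the medium of every line. Dbp, an output transcription factor of the circadian clock, had 36.6 and 40.6 in α3 and 549 and 355 in α3α9 cells, against 699.5 and 615.5 in α9 and 39.9 and 42.2 in null cells (-3.62 ± 0.2, adjusted p = 0.00012). Tsc22d3 (GILZ), a glucocorticoid-induced gene, had 1000 and 1016 in α3 and 3615 and 2808 in α3α9 cells, against 3043 and 3073 in α9 and 1028 and 976 in null cells (-1.59 ± 0.14, adjusted p = 0.00062). In both genes the marked lines read alike and the unmarked lines read alike, and the α3 parts were -0.31 and 0.03 (adjusted p = 0.21 and 0.86). The clock repressor Per1 had 544.5 and 601 in α3 and 1000 and 828 in α3α9 cells, against 1527 and 1996 in α9 and 653 and 561 in null cells (-1.58, adjusted p = 0.0012), and Tef, a relative of Dbp, had 276 and 329.5 on α3 arrays against 905.5 and 923 on α9 arrays (-1.55, adjusted p = 0.00079). The median set-and-α9 part of the list was -0.66 and the median α3 part -0.04. The count of lower members was 6 without α3 array 1 or α9 array 2 and 7 without α3 array 2. Promoter stretches of Per1 and Tef are shown because both genes passed and both hold the E-box CACGTG, in capitals, the sequence bound by CLOCK and BMAL1. The E-box was found in 5 of 10 lower members and in 3 of 8 that did not pass, beside 6.86% of all promoters. The stretches are chr11:69098758-69098813 and chr15:81802521-81802576, both on the plus strand (RefSeq, GRCm38.p6).
Per1: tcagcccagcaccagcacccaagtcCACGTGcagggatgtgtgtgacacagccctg
Tef: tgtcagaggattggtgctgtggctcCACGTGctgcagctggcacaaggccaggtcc

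The list of targets of YAP and TEAD, factors that answer to cell tension and density, had 10 of 20 measured members lower and 1 higher, with a median of -0.57. It also holds genes of the factors themselves, Yap1 (-0.6), Wwtr1 (-0.89) and Tead4 (-1.16), which are among the 10 lower members. F3, tissue factor, the starter of blood clotting, had 359.9 and 319.7 in α3 and 2002 and 1948 in α3α9 cells, against 2268 and 3980 in α9 and 723 and 795 in null cells (-3.09 ± 0.24, adjusted p = 0.0004). Ccn2, a matricellular protein, had 992 and 734.5 in α3 and 1783 and 1473 in α3α9 cells, against 3005 and 2092 in α9 and 1124 and 1095 in null cells (-1.54, adjusted p = 0.003). The ectonucleotidase Nt5e had 841 and 724 in α3 and 843 and 684 in α3α9 cells, against 3181 and 3389 in α9 and 1118 and 1333 in null cells (-2.05, adjusted p = 0.00039). The α9 line was brightest for all 3. The kinase Nuak2 was lower as well (-1.18, adjusted p = 0.001). The list's median was -0.08 for the α3 part and -0.63 for the set-and-α9 part. Without α3 array 2 the lower count was 6, and the single rise, of Fjx1, was lost without either α3 array or α9 array 2.

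Genes of plasminogen activation and clotting had 4 rises and 2 falls among 16 measured. Plau, or urokinase, had 6115 and 5644 in α3 and 3940 and 3319 in α3α9 cells, against 1956 and 1822 in α9 and 4161 and 4272 in null cells (1.63 ± 0.13, adjusted p = 0.00042). Tfpi, the inhibitor of tissue factor, had 166 and 143 in α3 and 74.25 and 75.85 in α3α9 cells, against 23.4 and 20.1 in α9 and 10.1 and 9.77 in null cells (2.17 ± 0.12, adjusted p = 0.00012), so Tfpi was higher and F3 lower in the α3 line than in the α9 line. Serpinb8 was lower (-1.55, adjusted p = 0.0014). Of 26 metalloproteinases and inhibitors 5 were higher and 3 lower. Stromelysin-1 (Mmp3) had 348.5 and 347 in α3 and 61.9 and 32.3 in α3α9 cells, against 38.7 and 40.03 in α9 and 47.75 and 50.6 in null cells (2.71 ± 0.21, adjusted p = 0.00039), bright in the α3 line alone. Mmp1b had 91.03 and 80.25 on α3 arrays against 19.7 and 17.5 on α9 arrays (1.55, adjusted p = 0.0005) and is close in sequence to Mmp1a, so its value is uncertain. Adamts1 was lower (-0.98, adjusted p = 0.0051) and Adamts4 higher (0.6, adjusted p = 0.013). Higher metalloproteinase calls numbered 2 without α3 array 1 and 3 without any other array of the compared or null lines, with Adamts4 lost without either α3 array or α9 array 1, and lower calls numbered 1 without either α3 array or α9 array 2. Promoter stretches of F3 and Mmp3, which passed in opposite directions, are shown because both hold the AP-1 motif searched as TGANTCA (the same on both strands), in capitals. That motif was found in 3 of 5 higher, 2 of 5 lower and 12 of 21 other members of these lists with a promoter entry, beside 7.82% of all promoters. The stretches are chr3:121723366-121723433 and chr9:7445751-7445807, both on the plus strand (RefSeq, GRCm38.p6).
F3: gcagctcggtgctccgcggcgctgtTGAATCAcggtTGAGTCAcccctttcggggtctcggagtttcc
Mmp3: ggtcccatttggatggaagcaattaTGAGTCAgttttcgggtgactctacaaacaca

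Among ligands and receptors of the EGF receptor family, 5 of 13 were lower and 3 higher. The ligand epigen (Epgn) had 39.2 and 37.5 in α3 and 19.7 and 15.7 in α3α9 cells, against 217 and 203 in α9 and 261 and 272 in null cells (-2.05 ± 0.12, adjusted p = 0.00013). Lines with α3 were dim for it in both sets. The receptors Egfr (570.5 and 558 on α3 arrays against 1185 and 1491 on α9 arrays) and Erbb3 (249.9 and 275 on α3 arrays against 820.4 and 686 on α9 arrays) were lower in the α3 line (-1.21 and -1.46, adjusted p = 0.0016 and 0.00087), and the receptor inhibitor Lrig1 was higher (1.29, adjusted p = 0.0032). For Egfr the α3 part was -0.14 (adjusted p = 0.43). Genes that answer to ERK signalling had 6 rises and 2 falls among 26 measured. The ERK phosphatase Dusp6 had 2031 and 1821 in α3 and 1456 and 1085 in α3α9 cells, against 512 and 256 in α9 and 2935 and 3479 in null cells (2.36 ± 0.3, adjusted p = 0.0022), with the α9 line below the other 3. The AP-1 subunit Fosl1 showed that order too, with 489 and 439 in α3 and 553 and 510 in α3α9 cells, against 147 and 99.3 in α9 and 543 and 584 in null cells (1.81, adjusted p = 0.00081). Fos was higher (1.36, adjusted p = 0.0022) and Fosl2 lower (-1.34, adjusted p = 0.0011). Without α9 array 2 there was 1 lower ERK gene.

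Of 23 TGF-β pathway genes 5 were lower and 1 higher. Ltbp1, which binds latent TGF-β, had 319.7 and 353 on α3 arrays against 778 and 637 on α9 arrays (-1.03, adjusted p = 0.0033), and the receptor Tgfbr1 was higher (0.7, adjusted p = 0.0057). The activin chain Inhba (-0.88) was lost without α9 array 2 and the repressor Ski (-0.57) without any 1 of the compared arrays. Lower TGF-β calls numbered 2 without either α3 array, 3 without α9 array 1 and 1 without α9 array 2. Of 38 BMP and Wnt genes 10 were lower and 3 higher. The BMP and Wnt antagonist Sostdc1 had 112 and 148 in α3 and 61.4 and 62.35 in α3α9 cells, against 711 and 653 in α9 and 13030 and 14640 in null cells. The null line stood far above every other line, and the parts of the difference opposed each other, at -4.87 for α3 and 2.6 for set and α9, with a sum of -2.27 ± 0.15 (adjusted p = 0.00025). Wnt5a had 101 and 98.6 in α3 and 120.4 and 99.7 in α3α9 cells, against 35.97 and 20.7 in α9 and 21.9 and 26.9 in null cells (1.4 ± 0.19, adjusted p = 0.0024) and was brighter in both lines with α3. Id1, a BMP target, read 727 and 637 in α3 and 227 and 239.6 in α3α9 cells, against 224.5 and 167 in α9 and 531 and 626 in null cells (1.73, adjusted p = 0.00079), with every marked array above every unmarked array. Noggin (Nog) was lower (-1.4, adjusted p = 0.0046). Without α9 array 2 the count of lower BMP and Wnt genes was 6.

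Prostaglandin pathway genes had 3 falls and 2 rises among 16 measured, beside 17.4% and 11.6% of named genes. Ptgs2, or cyclooxygenase-2, had 1558 and 1376 in α3 and 3285 and 3182 in α3α9 cells, against 7903 and 10420 in α9 and 3820 and 4187 in null cells. The α3 line was lowest and the α9 line highest, with null and α3α9 arrays between them (-2.62 ± 0.16, adjusted p = 0.00017). Both parts were negative, -1.46 for α3 and -1.16 for set and α9. Pla2g4a, the phospholipase that frees arachidonic acid, had 2377 and 2013 in α3 and 1955 and 1663 in α3α9 cells, against 5384 and 5829 in α9 and 5256 and 5869 in null cells (-1.35 ± 0.15, adjusted p = 0.0011) and was dimmer in both lines with α3. The synthase Ptges was higher (0.79, adjusted p = 0.0054), and Hpgds (0.52, adjusted p = 0.032) was a call lost without α3 array 1 or either α9 array. Angiogenic factors had 5 falls and 2 rises among 27, beside the same 17.4% and 11.6%. The vasoconstrictor endothelin-2 (Edn2) had 119 and 94.6 in α3 and 551 and 841 in α3α9 cells, against 306 and 527 in α9 and 54.9 and 37.5 in null cells (-1.77, adjusted p = 0.006), and its α3 part was positive (0.86). The co-receptor Nrp1 had 1110 and 1156 in α3 and 2077 and 1863 in α3α9 cells, against 3378 and 3464 in α9 and 2358 and 2658 in null cells (-1.58, adjusted p = 0.00039). Vegfa did not pass (0.05, adjusted p = 0.86). The rises among angiogenic factors numbered 0 without either α3 array, α9 array 2 or either null array, and 1 without α9 array 1.

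Of 9 genes tied to α3β1 in earlier work on keratinocytes, a list written with results of these arrays known, 5 were measured. Sparc, Fbln2 and Mmp9 were higher and Ptgs2 lower in the α3 line, and Bmp1 did not pass (-0.21, adjusted p = 0.35). Mmp9, a gelatinase, had 116 and 80.8 in α3 and 66.7 and 65.3 in α3α9 cells, against 56.3 and 62.75 in α9 and 62.8 and 74.2 in null cells (0.58 ± 0.17, adjusted p = 0.042), a call lost without α3 array 1 or any array of the other lines. Its α3 part was 0.27 (adjusted p = 0.2).

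For cell cycle genes the parts of the difference lay on opposite sides of 0. Of 36 measured, 5 were higher and 6 lower, beside 11.6% and 17.4% of named genes, and the list median was 0.02. The median α3 part was -0.44, with 20 members lower and 0 higher, beside 7.32% and 8.91% of named genes. The median set-and-α9 part was 0.46, with 24 higher and 3 lower, beside 10.4% and 19.9%. The proliferation marker Mki67, chosen after its values were seen, had 280 and 334 in α3 and 147 and 115 in α3α9 cells, against 335 and 363 in α9 and 552 and 591 in null cells. Its difference did not pass (-0.18, adjusted p = 0.43), with parts of -1.09 and 0.91. The replication helicase subunit Mcm5 was lower (-1.05 ± 0.14, adjusted p = 0.0027), and its α3 part was -0.99. Cyclin E2 (Ccne2) was higher, with 1384 and 1266 on α3 arrays against 495 and 330.2 on α9 arrays (1.67, adjusted p = 0.0015). Its α3 part was 0.38 and its set-and-α9 part 1.29. The calls in the list were few without single arrays: 1 higher and 2 lower without α3 array 1 or α9 array 2, and 2 higher and 3 lower without α3 array 2, with 3 higher without α9 array 1. Of 22 p53 targets and CDK inhibitors 5 were higher and 3 lower. The CDK inhibitors Cdkn1b (959 and 823 in α3 and 1007 and 764 in α3α9 cells, against 1824 and 2073 in α9 and 1140 and 1035 in null cells) and Cdkn1c (-1.02) were lower (adjusted p = 0.0038 and 0.0051), with -1.12 for Cdkn1b. The death receptor Fas had 338 and 296 in α3 and 419.5 and 434 in α3α9 cells, against 177 and 164 in α9 and 92.5 and 97.5 in null cells (0.83, adjusted p = 0.0033), and the p53 target Pmaip1 was lower (-1.65, adjusted p = 0.00053). Higher p53 calls numbered 2 without α3 array 1 or either α9 array and 3 without α3 array 2.

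**Figure D5:**
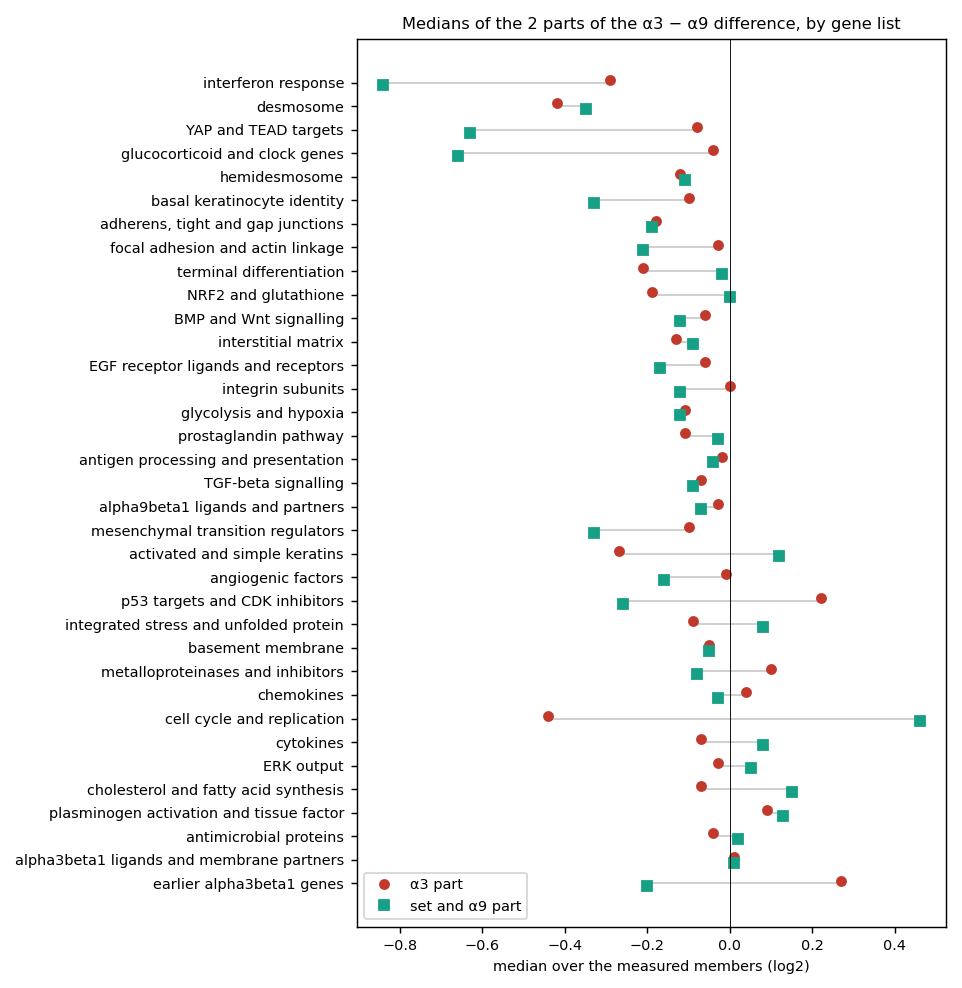
Median α3 part (red circles) and median set-and-α9 part (green squares) of the log2 difference between the α3 and α9 lines, over the measured members of 35 gene lists. For cell cycle genes the medians are -0.44 and 0.46, on opposite sides of 0, and for interferon response genes they are -0.29 and -0.84.

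Metabolic lists mixed rises and falls. Of 24 NRF2 and glutathione genes 6 were higher and 5 lower. The carbonyl reductase Cbr1 had 962 and 885 in α3 and 370.5 and 398 in α3α9 cells, against 258.5 and 185 in α9 and 572.5 and 642 in null cells (2.0 ± 0.17, adjusted p = 0.00051), and the glutathione transferase Gsta4 had 3997 and 5290 in α3 and 7541 and 6404 in α3α9 cells, against 10350 and 13310 in α9 and 12040 and 12690 in null cells (-1.35, adjusted p = 0.0029). Gpx2, a glutathione peroxidase, had 267 and 266 in α3 and 0.0954 and 11.5 in α3α9 cells, against 94.8 and 88.9 in α9 and 1952 and 1836 in null cells. The null line was far above the rest, and a difference of 1.39 (adjusted p = 0.0055) remained from parts of -2.56 and 3.95. Of 24 cholesterol and fatty acid genes 4 were higher and 4 lower, led by the desaturase Scd1, with 328 and 304 in α3 and 562.5 and 303 in α3α9 cells, against 1770 and 1862 in α9 and 874 and 990.2 in null cells (-2.47 ± 0.26, adjusted p = 0.00099). The elongase Elovl6 was higher (1.11, adjusted p = 0.0085), a call lost without α3 array 1. Of 24 glycolysis and hypoxia genes 4 were lower and 1 higher, beside 17.4% and 11.6% of named genes. Pfkfb3, which makes the activator of phosphofructokinase, had 269.8 and 286 in α3 and 1722 and 1146 in α3α9 cells, against 1887 and 1863 in α9 and 225 and 214 in null cells (-2.69 ± 0.19, adjusted p = 0.00028), with both marked lines dim, and Bnip3 was higher (1.16, adjusted p = 0.0046). Of 24 stress response genes 5 were higher and 4 lower, with Ddit3 (CHOP) at 339 and 388 on α3 arrays against 1013 and 1143 on α9 arrays (-1.53, adjusted p = 0.001) and Ddit4 higher (1.54, adjusted p = 0.0063). The set-and-α9 part was the larger for both, -1.38 for Ddit3 and 1.03 for Ddit4. Without α3 array 1 the NRF2 list had 3 higher and 3 lower, the lipid list 0 higher, and the stress list 3 higher and 2 lower. Without α3 array 2 they had 3 lower NRF2 genes, 1 higher lipid gene, and 3 higher and 2 lower stress genes. Without α9 array 1 there were 2 higher lipid and 3 higher stress genes, without α9 array 2 there were 1 higher lipid and 1 lower stress gene, without either null array 2 lower stress genes, and without either α3α9 array 7 lower lipid genes. The 2 measured genes of the prolactin family did not pass.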

How the data were processed

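RNA of 8 samples was read on Affymetrix Mouse Exon arrays, which hold probes along the exons of each transcript. The authors deposited a table with 1 intensity for each cluster on each array, made with Affymetrix Expression Console and the PLIER method, per the submitters' processing notes; neither versions nor a build were given in the sources used here. Each array was scaled to a common median of 102.5 and log2(intensity + 16) was taken. A mean per line was fitted to all 8 arrays with limma 3.58.1 in R 4.3.3 (4 residual degrees of freedom), with Benjamini-Hochberg adjustment over 23332 clusters and a threshold of 0.05. Of these clusters 14996 had 1 gene in the platform annotation, 1019 several and 7317 were unnamed here, and 14941 of those with 1 gene were matched to RefSeq.

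The text names the 15 largest rises and falls, up to 4 passing members of each list by size, and all measured members of 4 short lists, with a few exceptions marked in the text. The split of the difference into 2 parts was added after seeing the data, and the members and the 41 lists were chosen with earlier results of these data known. On simulated arrays in which 200 of 23332 clusters were changed, 33% of 2-fold and 88% of 4-fold changes were recovered. In the data 5950 clusters passed. The adjusted threshold is stricter where few clusters change, so these shares do not carry over to the data. Array numbers did not pair the lines: deviations of same-numbered arrays correlated at 0.045 between α3 and α9. The number of arrays limits the precision.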

Additional observations from a re-analysis of the deposited data

How the results depend on the processing

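The main counts, 5950 passing clusters with 2436 higher and 3514 lower, were recomputed under 11 other settings and with each array left out. No passing cluster changed sign in any of them, but most of these settings could not have reversed a sign. In all 5950 clusters both α3 values lay above, or both lay below, both α9 values. That fixes the sign when an array is left out or another constant is added. A reversal was possible only where the scaling changed: on the deposited scale, with centred log2 values or with quantile normalization. On the deposited scale, without scaling, 2672 clusters passed, 860 higher and 1812 lower, and 20 of the 189 named genes lost their call, among them Fas, Ptges, Sulf1 and Tgfbr1, which held without each array; the cause was not tested. With 1 array left out the total lay between 2754 and 6591, the higher count between 1165 and 2677 and the lower count between 1578 and 3914; a line then rests on 1 array, assumed to vary like the others. Of the 157 named genes that passed, 135 kept their call without each array. Named genes were mostly chosen for large differences, so their share of kept calls does not carry over to the other clusters. With array number as a replicate block 5044 clusters passed, 2101 higher and 2943 lower; the numbers did not pair the samples. Gpx2 lost its call with 1 added in place of 16. Quantile normalization gave 6547 calls (48.8% higher, against 40.9%) and the 4 compared arrays alone 5719. Human α9 and the re-analysis mark cannot be told apart, genes of close families may share probes, and dim clusters near the added 16 show compressed differences.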

Other observations

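Among genes outside the lists and the largest named changes, chosen after their values were seen, Ahnak, a very large scaffold protein under the plasma membrane, read 241 and 213 in α3 and 1556 and 1795 in α3α9 cells, against 1932 and 1920 in α9 and 416.5 and 417 in null cells (-3.00, adjusted p = 4.1e-05). Mrto4, a factor of ribosome assembly, went the other way with 1583 and 1288 in α3 and 199 and 201 in α3α9 cells, against 204 and 236 in α9 and 2458 and 1927 in null cells (2.62, adjusted p = 0.00021). For both genes the set-and-α9 part was the larger, -2.48 for Ahnak and 2.98 for Mrto4.

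In chromosome order, 8888 genes with a mean intensity of at least 100 were cut into 215 blocks of 40 neighbours. Block medians of the difference ran from -0.57 (Rad54l2 to Wdr6) to 0.32 (Rasa3 to Ash2l), with a median of -0.10, a 5th percentile of -0.37 and a 95th percentile of 0.16. On chromosome 10 every block lay below that median, from -0.51 (Mtfr2 to Fig4) to -0.15 (Spock2 to Tfam). Every median α3 part of that chromosome was negative too, down to -0.38 (Tle5 to Ntn4). The highest median α3 parts of all blocks were 0.47 (Insr to Atp4b) and 0.35 (Rasa3 to Ash2l), both on chromosome 8. Other blocks of chromosome 8 had negative ones. Arhgef7 and Col4a1, whose differences lay mostly in the α3 part, are also on chromosome 8. Whether their values share in a shift of neighbouring genes was not tested. Copy number was not measured.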
